A study of Mus musculus with 18 samples.

Results

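Transcript levels of 9 meiotic crossover genes (Msh4, Msh5, Hfm1, Tex11, Rnf212, Ccnb1ip1, Cntd1, Cdk2 and Mlh3) were examined in cultured mouse testes. They were picked by name from the 22657 genes of the expression table, through their NCBI gene numbers, and all 9 were found. The table covers 18 RNA-seq samples of ICR mouse testes in 6 groups of 3. A0, A10 and A50 were testes of mice that received no busulfan, kept for 48 h in medium holding 0, 10 or 50 μg/mL alginate oligosaccharides (AOS, short sugar chains obtained from a brown seaweed polymer). The groups B0, BA10 and BA50 came from mice injected once with 40 μg/g busulfan (an alkylating drug that is toxic to dividing germ cells) at 3 weeks of age, whose testes were collected 2 weeks later and cultured in the same way. The untreated testes were matched in age to the treated ones, and the series' own design text gives AOS in mg/kg body weight where the sample labels and methods give μg/mL. The methods describe several testes per treatment and a repeated experiment, but the labels do not tie a sample to separate animals or cultures, so the p-values measure the spread between these samples.

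Crossovers exchange DNA between homologous chromosomes in the pachytene stage of meiosis and hold the homologs together until they separate. Msh4 and Msh5 form a clamp that stabilizes recombination intermediates, Hfm1 (a helicase) and Tex11 help intermediates to mature, Rnf212 and Ccnb1ip1 (also called HEI10) are RING-type proteins that select which sites go on, and Cntd1, Cdk2 and Mlh3 act at the sites that become crossovers, where Mlh3 is part of a nuclease. Loss of most of these genes in mice arrests spermatocytes and causes male sterility.

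All 9 genes were lower in the busulfan groups, and AOS moved none of them past the test. In the busulfan samples as a whole, Tex11 was left at 10.1% of its mean level in untreated samples, Hfm1 at 10.4%, Ccnb1ip1 at 15.9% and Cntd1 at 20.3%. The other members kept more of their level, with 43.0% for Cdk2, 44.5% for Rnf212, 45.4% for Msh5, 52.0% for Msh4 and 60.1% for Mlh3. Values are FPKM, which scale the fragments of a gene by its length and by the mapped fragments of the sample. Differences were tested with limma on log2(FPKM + 1) over 15790 genes (those reaching 1 FPKM in 3 or more samples), and a gene was called at a Benjamini-Hochberg adjusted p under 0.05.

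The stretches of DNA before the transcript starts that RefSeq gives for these genes are shown as a description. Their part in the fall of the members was not tested. RefSeq (GRCm38.p6) gives a window of 250 bases before such a start for 8 of the 9 genes, with a second, overlapping window for Mlh3, and none was matched for Tex11. In the GENCODE annotation, from which the gene positions below are taken, several genes begin further upstream. The windows of Msh4, Hfm1 and Ccnb1ip1 lie wholly within the gene there, outside exons, and 191 bases of the Cntd1 window and 123 of the Msh5 window lie within theirs. All 250 bases of the Cntd1 window are exonic in GENCODE (Cntd1 or Coa3), as are 46 of the Msh5 window (Msh5) and 105 of the Cdk2 window (Pmel). Each window was searched on both strands for CNCCTCAG (the motif of the meiotic activators STRA8 and MEIOSIN), GCNGTTG (a MYB-type motif) and TTTNNCGC (an E2F-type motif). The first motif was found in the windows of 3 genes, Hfm1, Msh5 and Cdk2, and in 7.26% of the 14928 windows that belong to tested genes. G and C made up 75.6%, 67.2% and 63.2% of these 3 windows, and the shares over tested genes were not matched for this. Msh5 and Cntd1 held the MYB-type motif (10.6% of windows), and Msh5, Cntd1 and Cdk2 the E2F-type motif (6.28% of windows). No matches within a window overlapped. Such a match describes letters and does not show that a factor binds. Below are the whole window of Hfm1 and the 30 bases around 1 match in each of 3 other genes, read 5′ to 3′ on the strand of the gene, with the matching letters in capitals (the STRA8-MEIOSIN motif in Hfm1, Msh5 and Cdk2, and the MYB-type motif in Cntd1).
Hfm1, chr5:106925891-106926140, minus strand: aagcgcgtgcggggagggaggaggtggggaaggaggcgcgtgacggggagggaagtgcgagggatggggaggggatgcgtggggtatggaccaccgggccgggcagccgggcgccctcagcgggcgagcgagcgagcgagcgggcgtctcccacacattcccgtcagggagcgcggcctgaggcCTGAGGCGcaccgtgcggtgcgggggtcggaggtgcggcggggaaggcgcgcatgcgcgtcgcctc
Msh5, chr17:35046686-35046715, minus strand: gatcgtcgcggCTGAGGTGacggaaaaggc
Cdk2, chr10:128705122-128705151, minus strand: gggcggggcctCTGAGGCGggagcgcgatg
Cntd1, chr11:101279123-101279152, plus strand: gggcgcgaaaaGCTGTTGaccgttcgaagc
Counted from the RefSeq start, the match in Hfm1 lay 66 to 59 bases before it, in Msh5 82 to 75 bases, in Cdk2 89 to 82 bases and in Cntd1 69 to 63 bases. The windows of Msh4, Mlh3, Rnf212 and Ccnb1ip1 held none of the 3 motifs.

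**Figure D1:**
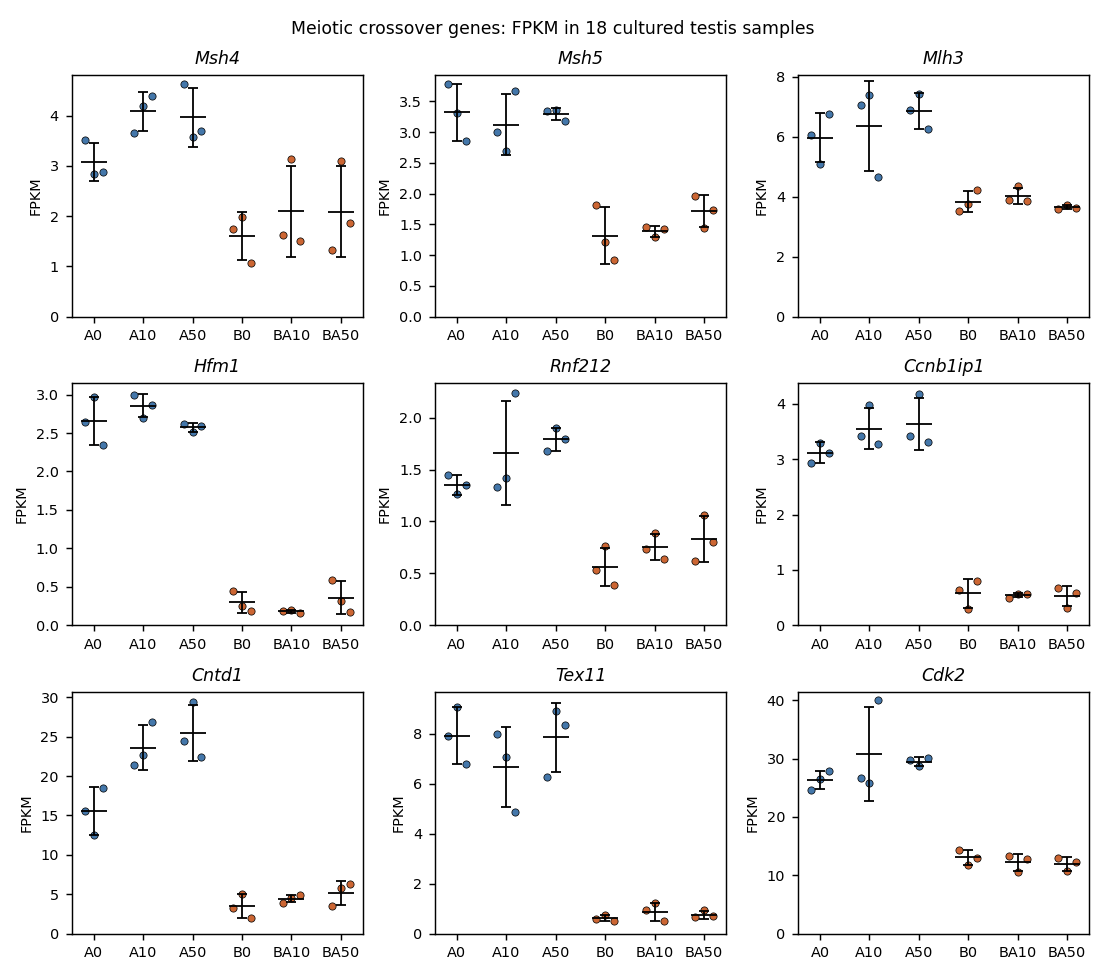
FPKM of the 9 crossover genes (vertical axes, each starting at 0) in the 6 groups (horizontal axes). Points are samples, blue without and orange with busulfan, and bars are the mean and SD of 3 samples. In 8 panels the 9 orange points lie below the 9 blue points, as for Tex11 with at most 1.22 against at least 4.88 FPKM, and in that of Msh4 replicate 2 of BA10 (3.14) and of BA50 (3.09) lies above 2 of the A0 samples.

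Msh4 (NCBI gene 55993, chromosome 3, 153857149 to 153906138 in GRCm38, minus strand) and Msh5 (17687, chromosome 17, 35028605 to 35046745, minus strand) encode the paired subunits of the clamp. Msh4 was at 3.51, 2.84 and 2.88 FPKM in A0, 3.65, 4.2 and 4.4 in A10 and 4.64, 3.57 and 3.7 in A50. After busulfan it was at 1.74, 1.99 and 1.07 in B0, 1.63, 3.14 and 1.51 in BA10 and 1.32, 3.09 and 1.86 in BA50. The treated and untreated samples did not overlap at any AOS concentration, but replicate 2 of BA10 and of BA50 exceeded 2 of the 3 A0 samples. Msh4 fell by 0.71 on the log2 scale in the mean of the 3 busulfan comparisons (SE 0.13, limma adjusted p = 0.000371). In single comparisons it was called in BA10 against A10 (adjusted p = 0.025) and BA50 against A50 (adjusted p = 0.0295) and was not called in B0 against A0 (log2 difference -0.66, SE 0.22, adjusted p = 0.0577). These calls were the least stable of the set. The BA10 call was lost without A10 replicate 2 or 3 or BA10 replicate 1 or 3 (adjusted p 0.0562 to 0.104), and the BA50 call without any A50 replicate or without BA50 replicate 1 or 3 (adjusted p 0.054 to 0.129).

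Msh5 was at 3.79, 3.31 and 2.86 FPKM in A0, 3.01, 2.69 and 3.67 in A10 and 3.34, 3.36 and 3.18 in A50, and the busulfan samples had 1.82, 1.21 and 0.92 in B0, 1.45, 1.29 and 1.42 in BA10 and 1.97, 1.44 and 1.74 in BA50. The highest treated sample was below the lowest untreated one. The log2 level of Msh5 fell by 0.79 in the mean of the 3 comparisons (SE 0.08, adjusted p = 1.63e-06), and it was called in each of them. The share left was 52.0% for Msh4 and 45.4% for its partner Msh5.

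Hfm1 (330149, chromosome 5, 106840192 to 106926321, minus strand), the helicase, was at 2.65, 2.97 and 2.35 FPKM in A0, 3.0, 2.7 and 2.87 in A10 and 2.62, 2.51 and 2.59 in A50. In B0 it was at 0.45, 0.25 and 0.19, in BA10 at 0.19, 0.2 and 0.16 and in BA50 at 0.59, 0.32 and 0.17. Every treated sample was under 1 FPKM and far from the untreated ones. Hfm1 fell by 1.54 on the log2 scale (SE 0.07, adjusted p = 2.43e-10). Because 1 FPKM was added before taking logs, the scale compresses such low values, and with 0.1 FPKM added Hfm1 fell by 2.96.

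Tex11 (83558, chromosome X, 100838648 to 101059667, minus strand) was the only X-linked member, and with Hfm1 it kept the smallest share. It was at 7.92, 9.05 and 6.78 FPKM in A0, 7.99, 7.07 and 4.88 in A10 and 6.28, 8.92 and 8.35 in A50, compared to 0.59, 0.74 and 0.51 in B0, 0.93, 1.22 and 0.5 in BA10 and 0.65, 0.95 and 0.69 in BA50. One busulfan sample, BA10 replicate 2, exceeded 1 FPKM. In the mean of the comparisons Tex11 decreased by 2.27 on the log2 scale (SE 0.10, adjusted p = 2.86e-10), and with 0.1 FPKM added it decreased by 3.17.

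Rnf212 (671564, chromosome 5, 108729290 to 108774982, minus strand) had the lowest level of the set in untreated samples. It was at 1.45, 1.26 and 1.35 FPKM in A0, 1.33, 1.42 and 2.24 in A10 and 1.68, 1.9 and 1.79 in A50, and at 0.53, 0.76 and 0.39 in B0, 0.73, 0.89 and 0.64 in BA10 and 0.62, 1.06 and 0.8 in BA50. All treated samples were below all untreated samples, by a small margin in FPKM. Rnf212 fell by 0.60 on the log2 scale (SE 0.08, adjusted p = 2.53e-05), or by 1.08 with 0.1 FPKM added. Under quantile normalization it was not called in B0 against A0 (adjusted p = 0.0885).

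Ccnb1ip1 (239083, chromosome 14, 50789248 to 50807732, minus strand), which works after Rnf212, was at 2.93, 3.3 and 3.12 FPKM in A0, 3.42, 3.97 and 3.27 in A10 and 3.41, 4.18 and 3.31 in A50. In the busulfan groups its values were 0.64, 0.29 and 0.79 in B0, 0.5, 0.56 and 0.56 in BA10 and 0.67, 0.32 and 0.58 in BA50, so none reached 1 FPKM. Ccnb1ip1 fell by 1.52 on the log2 scale (SE 0.08, adjusted p = 7.38e-10), or by 2.49 with 0.1 FPKM added. The share left, 15.9%, was lower than the 44.5% of Rnf212, its partner in site selection, and the 2 shares were not tested against each other. Of the exonic bases of Ccnb1ip1, 12.4% also belong to Rpph1, an RNA gene on the same strand. The exons of Msh4 and Cdk2 share 1.8% and 0.5% of their bases with a gene on the opposite strand.

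Cntd1 (68107, chromosome 11, 101279012 to 101296317, plus strand), a cyclin-like protein needed to complete crossover designation, was at 15.61, 12.47 and 18.53 FPKM in A0, 21.34, 22.67 and 26.84 in A10 and 24.46, 29.34 and 22.45 in A50. It dropped to 3.27, 5.09 and 2.06 in B0, 3.96, 4.58 and 4.86 in BA10 and 3.48, 5.75 and 6.29 in BA50. The lowest untreated sample was above the highest treated one, and within the untreated groups the A0 samples were lower than the A10 and A50 samples. Cntd1 fell by 2.07 on the log2 scale (SE 0.13, adjusted p = 1.07e-08). Its level is uncertain, since 70.2% of its exonic bases overlap exons of Becn1 (an autophagy gene) on the opposite strand and the sources used here do not say whether reads were counted by strand. Becn1 itself ranged from 58.05 to 65.01 FPKM in untreated and from 53.3 to 61.5 FPKM in busulfan samples, a log2 difference of -0.13 (SE 0.04, adjusted p = 0.0271).

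Cdk2 (12566, chromosome 10, 128697939 to 128705031, minus strand), the kinase that is found at crossover sites and at telomeres in spermatocytes and that also serves the mitotic cycle, had the highest mean level of the set in every group. It was at 24.65, 26.5 and 27.86 FPKM in A0, 26.63, 25.76 and 40.0 in A10 and 29.73, 28.69 and 30.06 in A50, and at 14.33, 11.83 and 13.03 in B0, 13.32, 10.65 and 12.72 in BA10 and 12.91, 10.71 and 12.25 in BA50. The treated samples stayed in a narrow range, and A10 replicate 3 stood above all others. Cdk2 fell by 1.15 on the log2 scale (SE 0.08, adjusted p = 3.24e-08).

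Mlh3 (217716, chromosome 12, 85234520 to 85270599, minus strand) kept the largest share. It was at 6.06, 5.1 and 6.74 FPKM in A0, 7.04, 7.39 and 4.65 in A10 and 6.9, 7.42 and 6.25 in A50, and at 3.53, 3.75 and 4.23 in B0, 3.89, 4.34 and 3.87 in BA10 and 3.6, 3.72 and 3.63 in BA50. The groups were apart at each AOS concentration, most narrowly for A10 replicate 3 against BA10 replicate 2. Mlh3 fell by 0.60 on the log2 scale (SE 0.08, adjusted p = 1.99e-05). Its call in B0 against A0 (adjusted p = 0.0172) was lost without A0 replicate 1 or 3 or B0 replicate 1 or 2 (adjusted p 0.05 to 0.0884), and its call in BA10 against A10 (adjusted p = 0.013) without A10 replicate 2 (adjusted p = 0.0546).

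Counted together, 8 of the 9 genes were called lower in B0 against A0, where 12.3% of all genes tested were. In BA10 against A10 the count was 9 of 9 (15.2% of all genes), in BA50 against A50 it was 9 of 9 (16.2%), and in the mean of the 3 comparisons 9 of 9 (24.8%). The 3 treated values were below the 3 untreated ones for all 9 members at 0, 10 and 50 μg/mL AOS, compared to 22.7%, 20.2% and 25.7% of all genes tested. The median log2 difference of the members was -1.15 in the mean of the comparisons, and that of all genes was 0.01. An exact two-sided permutation test for each gene, with busulfan labels exchanged within each AOS concentration (8000 relabellings), gave p = 0.00025 for each of the 9, the smallest value it can give. Groups that are apart at all 3 concentrations must give this value, so it adds nothing to the counts of such groups. The exact test was not run on the other genes. With 3 samples against 3 the smallest exact p is 0.1, so single comparisons rest on limma. With the limits named in the study's methods (a false discovery rate up to 0.001 and a log2 change no smaller than 1), 5 members were called lower in the mean of the comparisons, namely Hfm1, Ccnb1ip1, Cntd1, Tex11 and Cdk2, where 3.52% of all genes tested were. The limit on the log2 change depends on the FPKM added, and with 0.1 FPKM added the changes of Msh5 (-1.11) and Rnf212 (-1.08) also exceeded 1. Hfm1 and Ccnb1ip1 passed the filter on low values through untreated samples alone, and Rnf212 and Tex11 had 1 busulfan sample at 1 FPKM or more. Without any filter the members called were again 8, 9, 9 and 9, with 2212, 2655, 2849 and 4580 of all 22657 genes called lower.

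**Figure D2:**
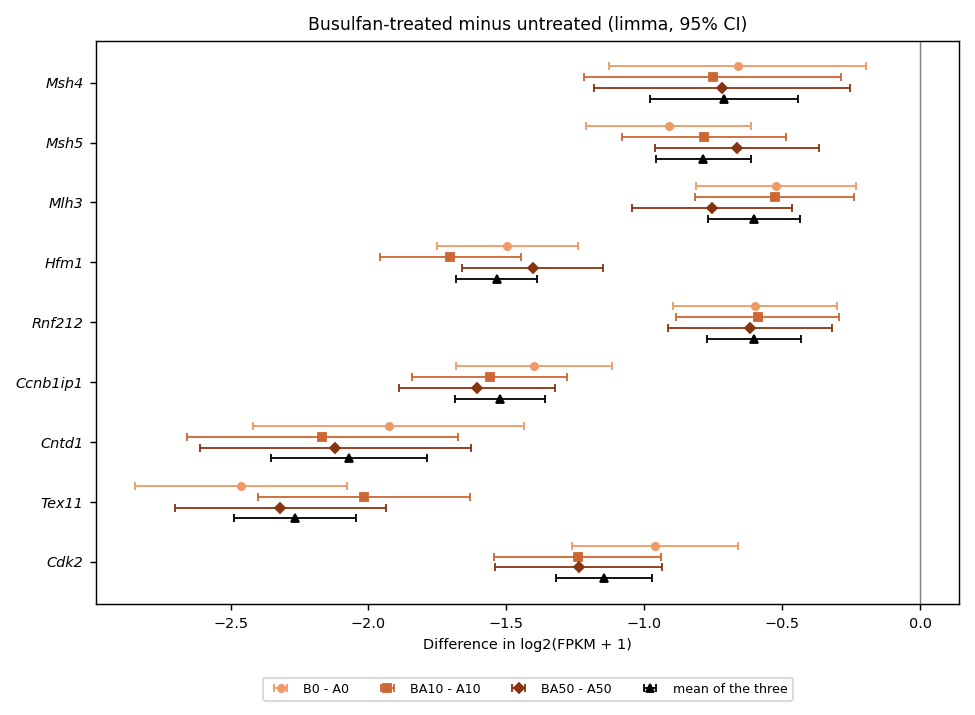
Busulfan-treated minus untreated difference in log2(FPKM + 1) (horizontal axis) for each crossover gene (vertical axis), at each AOS concentration and as the mean of the 3, with 95% confidence intervals from limma. All intervals lie below 0, and the means run from -2.27 for Tex11 to -0.60 for Mlh3.

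The share left after busulfan was also taken at each AOS concentration. For Tex11 it was 7.75% at 0, 13.3% at 10 and 9.72% at 50 μg/mL, for Hfm1 11.2%, 6.42% and 13.99%, and for Ccnb1ip1 18.4%, 15.2% and 14.4%. Msh4 kept 52.0%, 51.3% and 52.6%, while Msh5 went from 39.7% over 44.4% to 52.1% and Mlh3 from 64.3% over 63.4% to 53.2%. No member passed the test of the difference between these changes (the interaction of AOS and busulfan) at 10 or 50 μg/mL, where 0% of all genes did in each. At an unadjusted p under 0.05 these interactions had 627 and 992 genes and no member. The member with the lowest unadjusted p was Tex11 at 10 μg/mL (interaction 0.44, SE 0.25, adjusted p = 0.91).

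Other genes of the same process were lower as well. Of 15 further crossover genes 14 were measured, and 12 of the 14 were called lower in the mean of the 3 comparisons (median log2 difference -0.81). The share of all genes tested that were called lower there was 24.8%, which applies to the gene lists below as well. Exo1, which resects DNA ends and assists the nuclease of Mlh3, fell by 1.24 (SE 0.07, adjusted p = 3.66e-09), Prr19, a partner of Cntd1, by 1.18 (SE 0.16, adjusted p = 2.42e-05), and Mcmdc2, a helicase-like protein, by 1.12 (SE 0.06, adjusted p = 6.58e-10). Fancm, a helicase of general DNA repair that is named here after its values were seen, was among those not called, with 84.2% of its untreated mean (log2 difference -0.16, SE 0.09, adjusted p = 0.187).

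Among 9 partners and regulators of Cdk2, 6 were called lower and none higher (median -0.32). Ccne2, an E-type cyclin, fell by 1.96 (SE 0.05, adjusted p = 1.75e-12), Spdya, a Cdk2 activator at meiotic telomeres, by 1.40 (SE 0.13, adjusted p = 7.77e-07), and Ccna1, the meiotic A-type cyclin, by 0.90 (SE 0.16, adjusted p = 0.000491). The synaptonemal complex, the protein axis on which crossovers form, had 8 of 10 genes called lower with a median of -2.18. Hormad1, an axis protein, fell by 3.74 and Sycp3 and Tex12, parts of the lateral and central elements, by 3.28 and 2.77 (adjusted p at most 1.24e-11). Of the genes that make double-strand breaks and exchange strands, 10 of 12 were tested and 9 were called lower (median -1.30), with examples in Dmc1, the meiotic strand exchange enzyme, which fell by 2.48, Meiob, a binder of single-stranded DNA, which fell by 2.455, and Spo11, the maker of the breaks, which fell by 1.99. By FPKM, the median share left was 43.0% for the 9 members, 50.1% for the other crossover genes, 14.5% for the synaptonemal complex and 27.8% for the break and exchange genes. These lists were compared by their counts and medians only.

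**Figure D3:**
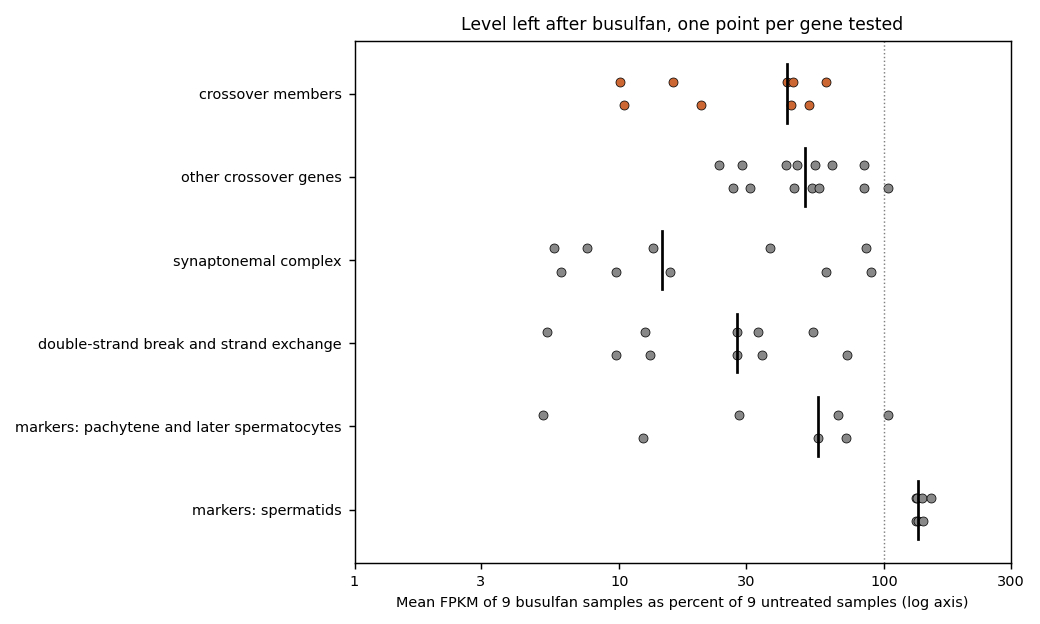
Mean FPKM of the 9 busulfan samples as percent of the mean of the 9 untreated samples (horizontal axis, log scale), 1 point per gene tested, by gene list (vertical axis), with the median of each list as a black line. Crossover members (orange) spread from 10.1% to 60.1%, and the spermatid markers lie at 132% or above.

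Markers of spermatocytes and spermatogonia were mostly lower in the busulfan samples as well, and those of spermatids were not. Of 7 markers of pachytene (the stage in which crossovers form) and later spermatocytes, 6 were called lower (median -0.85), among them Piwil1, a piRNA-binding protein, which fell by 3.44, and Pou5f2 and Ovol1, transcription factors, which fell by 2.35 and 1.13. The shares left of the 7 markers ran from 5.17% to 103% (median 56.3%), and 1 had a log2 difference above 0. Their summed level was 933 to 2500 FPKM in the untreated samples and 620.5 to 1683 FPKM in the busulfan samples. Most of this sum came from Ldhc alone (means of 1167 and 783.9 FPKM). Of 7 spermatogonial markers 4 were called lower (median -0.58), led by Stra8, the gene of meiotic entry, which fell by 4.58. Next came Dmrt1, which fell by 2.51, and Sall4, by 1.30. The shares left ran from 0.14% to 99.9% (median 66.6%). In BA50 against A50, 4 of the 7 were called lower and 1 higher (Uchl1, at 163.4% of its A50 mean). Of the 15790 genes tested, 2559 were called lower there and 584 higher. Summed levels were 83.0 to 171 FPKM without and 52.8 to 108 FPKM with busulfan, with Uchl1 as the largest part (means of 61.35 and 61.29 FPKM). Of all genes tested, 24.8% were called lower. In the mean of the 3 comparisons the 7 spermatid markers all had log2 differences above 0 (median 0.39) and none was called. They differed between AOS concentrations. In B0 against A0, 5 of the 7 were below 0 (median -0.12). All 7 were above 0 in BA10 against A10 (median 0.33) and in BA50 against A50 (median 0.91), again with none called. In bulk tissue, fewer spermatocytes and less RNA per spermatocyte cannot be told apart, and the part of these markers in the fall of the crossover genes was not tested.

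Sertoli and Leydig markers were present in every sample, with summed levels of 1030 to 5081 and 706 to 2282 FPKM. Clu made up most of the Sertoli sums (means of 2441 FPKM without and 3231 FPKM with busulfan). Over all genes tested, 13.3% were called higher in the mean of the 3 comparisons. Of the somatic lists, 1 of 6 Sertoli markers was called higher (Gata4, by 0.31), 1 of 5 Leydig markers (Star, by 0.75), 1 of 4 macrophage markers (Cd14, by 0.39) and none of 4 peritubular myoid markers, with medians of 0.30, 0.37, 0.15 and 0.04. The B0 samples stood apart in markers of adipocytes and simple epithelium. All 5 adipocyte markers were called higher after busulfan (median 1.48, Cfd 2.31, Car3 1.65 and Retn 1.48), with summed levels of 203 to 861 FPKM in B0 and 42.2 to 137 FPKM in the 5 other groups. Of 4 markers of simple epithelium 3 were called higher (Krt7 0.99, Krt18 0.89 and Krt8 0.74) and Epcam, named here after its values were seen, was called lower (median 0.81), with summed levels of 69.2 to 179 FPKM in B0 and 16.4 to 43.9 FPKM elsewhere. In untreated samples Fabp4 and Epcam had the highest means of the adipocyte and simple epithelium lists (58.11 and 22.67 FPKM). The adipocyte sums were 67.6 to 122 FPKM in BA10 against 42.2 to 60.5 FPKM in A10, and 100.4 to 137 FPKM in BA50 against 60.6 to 62.8 FPKM in A50, so the busulfan samples were above the untreated ones there too, but no adipocyte or simple epithelium marker was called in either comparison. The part of these markers in the differences of the crossover genes was not tested. In A10, replicate 3 correlated less with its group (Pearson's r across genes 0.929 and 0.941, against 0.985 between the other A10 samples). This replicate had the highest Msh4, Msh5, Rnf212, Cntd1 and Cdk2 of A10 and the lowest Mlh3, Ccnb1ip1 and Tex11. Without it, 8 members were called in BA10 against A10 and 9 in the mean of the comparisons, where 2103 and 4159 of 15790 genes were called lower.

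No crossover gene was called after culture with AOS. Compared to A0, no member was called in A10 (0% of all genes tested) or in A50 (0%), and compared to B0, none was called in BA10 (0.0253%) or BA50 (0.095%). A10 and A50 share the A0 samples, BA10 and BA50 share the B0 samples, and B0 and A0 also serve in the busulfan comparison. At an unadjusted p under 0.05, limma had 1 member in A10 and in A50 (Cntd1 in each) and none in BA10 or BA50, where all genes gave 2405, 2471, 798 and 3841. The 9 members had median log2 differences of 0.14 and 0.17 in A10 and A50 against A0, and of 0.06 and 0.13 in BA10 and BA50 against B0, and that of all genes was between -0.06 and -0.03. All 3 values of the AOS group were above all 3 values of its control for 2 members in A10 (Msh4 and Cntd1, compared to 7.81% of all genes), for 5 in A50 (these and Rnf212, Ccnb1ip1 and Cdk2, compared to 17.6%), and for none in BA10 (3.64%) or BA50 (11.2%).

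Cntd1 showed the largest differences with AOS among the members. Its mean was 15.5 ± 3.03 FPKM in A0, 23.6 ± 2.87 in A10 and 25.4 ± 3.54 in A50 (SD, n = 3 each). This was a log2 difference of 0.58 in A10 (95% confidence interval 0.09 to 1.08, limma adjusted p = 0.322) and of 0.68 in A50 (0.19 to 1.18, adjusted p = 0.229). After busulfan the mean was 3.47 ± 1.53 FPKM in B0, 4.47 ± 0.461 in BA10 and 5.17 ± 1.49 in BA50 (SD, n = 3 each), log2 differences of 0.34 (-0.15 to 0.83, adjusted p = 0.749) and 0.49 (-0.0013 to 0.98, adjusted p = 0.206). The intervals after busulfan and without it overlapped, and the interactions were -0.24 (SE 0.33, adjusted p = 0.933) and -0.19 (SE 0.33, adjusted p = 0.98). Under the alternatives the lowest adjusted p of Cntd1 was 0.0648 (BA50 against B0, without BA50 replicate 1), so that it was not called under any of them.

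**Figure D4:**
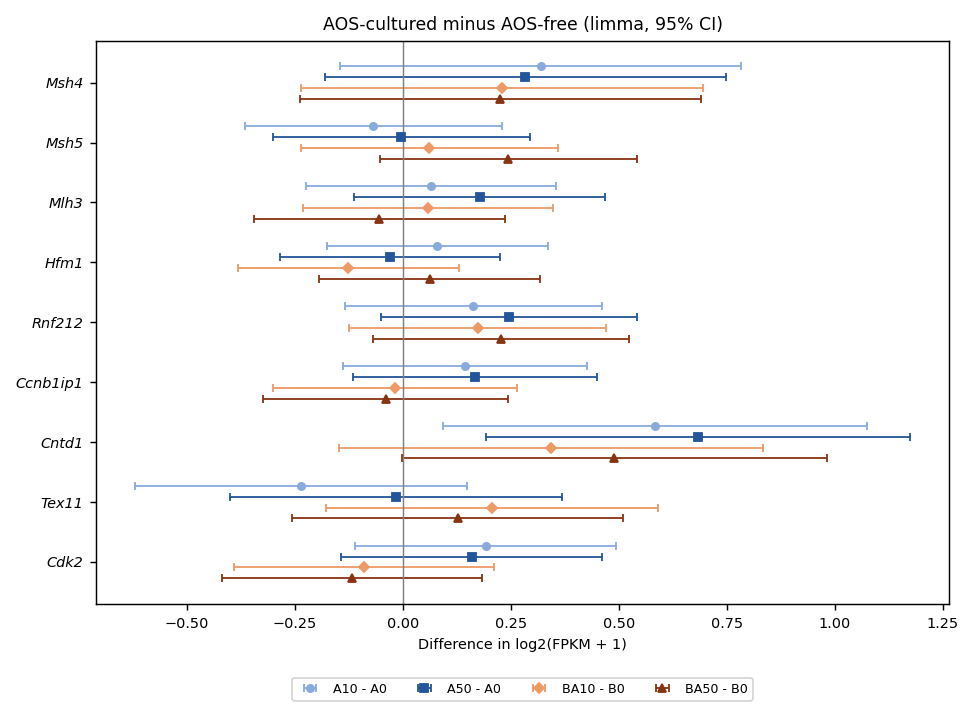
AOS-cultured minus AOS-free difference in log2(FPKM + 1) (horizontal axis) for each crossover gene (vertical axis), without busulfan (blue) and after it (orange and brown), with 95% confidence intervals from limma. The intervals of Cntd1 in A10 (0.09 to 1.08) and A50 (0.19 to 1.18) lie above 0 before adjustment for all genes, and all others include 0.

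For the other members all intervals included 0. Without busulfan Msh4 differed by 0.32 at 10 μg/mL (-0.15 to 0.78) and 0.28 at 50 μg/mL (-0.18 to 0.75), and after busulfan by 0.23 at each concentration (-0.24 to 0.69), with high values in replicate 2 of both busulfan groups. Rnf212 differed by 0.16 and 0.25 without busulfan and by 0.17 and 0.23 after it (lower concentration first), and Ccnb1ip1, in the same order, by 0.14, 0.17, -0.02 and -0.04. Hfm1 differed by 0.08, -0.03, -0.13 and 0.06, and Tex11 by -0.24, -0.02, 0.21 and 0.13. In BA50 against B0 the upper limit of the interval was 0.32 for Hfm1 and 0.24 for Ccnb1ip1. In B0 against A0 these genes differed by -1.497 (-1.75 to -1.24) and -1.40 (-1.68 to -1.12). Both stayed under 1 FPKM in all busulfan samples, where the log scale compresses differences. For Rnf212 the upper limit was 0.52 beside a difference of -0.60 (-0.90 to -0.30), and for Msh4 0.69 beside -0.66 (-1.13 to -0.20). Both comparisons use the B0 samples, and BA50 was not tested against A0. The limits therefore do not show how much of a fall was or was not made up. Msh5 differed by -0.07, -0.00, 0.06 and 0.24, Mlh3 by 0.06, 0.18, 0.06 and -0.05, and Cdk2 by 0.19, 0.16, -0.09 and -0.12. Same-numbered B0 and BA50 samples deviated together, and with a replicate block within the busulfan samples 588 genes were called in BA50 against B0 in place of 15, again with 0 members.

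Germ cell markers were also compared between the AOS groups and their controls. The 7 markers of pachytene and later spermatocytes were all above 0 in the 4 AOS comparisons, with medians of 0.43, 0.67, 0.41 and 0.56 (ordered as for Ccnb1ip1), and none was called. The spermatid markers were likewise above 0, with medians of 0.30, 0.20, 0.70 and 1.10, and none was called. All 3 AOS values were above all 3 control values for 5, 6, 0 and 2 of the 7 spermatocyte markers. For the 7 spermatid markers the counts were 0, 0, 5 and 5. Of all genes tested, 7.81%, 17.6%, 3.64% and 11.2% had this. In the other direction both lists had 0. In the other crossover genes the medians were 0.11, 0.17, 0.08 and 0.16, in the synaptonemal complex 0.25, 0.29, 0.32 and 0.20, in the break and exchange genes 0.03, 0.22, -0.03 and 0.09, and among the Cdk2 partners 0.09, 0.20, 0.07 and 0.15, with no gene of these lists called. Spermatogonial markers had medians of -0.33, -0.11, -0.00 and 0.01 and Sertoli markers of -0.69, -0.25, 0.05 and 0.13, again with none called. No Leydig, macrophage or peritubular myoid marker was called either. The genes called in the marker lists were adipocyte and simple epithelium markers, lower against B0. In BA50 they were Cfd, Retn and Car3 (log2 differences -4.74, -3.52 and -3.99), in BA10 Car3 (-3.74), and, at both concentrations, Krt7, Krt8 and Krt18 (-3.37 to -2.71).

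The genes whose pattern over the 18 samples came closest to the mean pattern of the 9 members were Kif11, Urb2, Tpx2, Terb2 and Urb1. Likeness was the root mean square difference of log2(FPKM + 1) after centring each gene on its own mean, and it was 0.0804, 0.0875, 0.0899, 0.0908 and 0.0957 for these, compared to a median of 0.69 over all other genes tested. Kif11 and Tpx2 are spindle proteins, Urb1 and Urb2 take part in ribosome assembly, and Terb2 ties meiotic telomeres to the nuclear envelope. Terb2 was at 1.65 ± 0.202 FPKM without and 0.0922 ± 0.0502 FPKM with busulfan, and Tpx2 at 20.6 ± 1.83 and 8.01 ± 0.574 FPKM (SD, n = 9 each).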

How the data were processed

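RNA-seq values of 18 cultured testis samples in 6 groups of 3 were analysed. Groups and replicate numbers came from the sample labels. The study's methods describe poly(A) libraries read on an Illumina HiSeq instrument, SOAPaligner and RPKM, while the submitters' processing notes name HISAT, Bowtie2, RSEM and the build GRCm38.p5. The authors deposited the values as FPKM with 2 decimals. No read counts were given, so depth is unknown, and the FPKM of a sample summed to between 463970 and 511274. No pair of samples was identical.

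The study's own test needs read counts and was not run. Values were fitted with limma 3.58.1 in R 4.3.3 (lmFit, then eBayes with a trend), each group having its own mean of log2(FPKM + 1), over the 15790 genes at 1 FPKM or more in at least 3 samples, which gave 12 residual and 2.56 prior degrees of freedom. P-values were adjusted over all genes tested. Percent left is the ratio of mean FPKM in busulfan to untreated samples. In the fit tested on simulated data for the mean of the 3 busulfan comparisons (15790 genes), 143, 189 and 197 of 200 genes lowered by 0.5, 1 and 2 on the log2 scale were recovered, and for B0 against A0 43, 155 and 189. The lowered genes were drawn from a middle range of mean level. Most members lie below that range, so these counts do not describe them. Members and gene lists were chosen with earlier results of these data known. The 9 members are named in full. Of each list, at most the 3 called genes with the largest busulfan difference are named, with any called in an AOS comparison, and the 5 genes most like the members' mean pattern. Fancm, Epcam, Uchl1, Ldhc, Clu and Fabp4 fall outside this rule and were named after their values were seen. A gene counted among the other crossover genes is not reported here by name.

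Deviations of same-numbered samples from their group means had correlations of 0.56, 0.42 and 0.14 between B0 and BA50. Between BA10 and BA50 they were 0.35, 0.67 and 0.44. The correlation was over 0.1 in 16 of 45 same-numbered pairs in all, and the signs were mixed, down to -0.66 (A10 and B0, replicate 3). The labels do not say that a number marks a shared repeat. The alternatives were equal sums, quantile normalization, no filter or a mean of 5 FPKM or more as a strict filter, a pseudocount of 0.1, a replicate block, eBayes without trend, fitting the compared groups alone, each replicate left out and the study's limits. The replicate block within busulfan samples and the fit of B0 and BA50 alone with the block were chosen after seeing the data. Gene positions and exon overlaps came from GENCODE M21 (GRCm38), upstream windows from RefSeq (GRCm38.p6), and Python 3.11.15 (with NumPy 2.4.6, pandas 2.3.3, matplotlib 3.10.9 and SciPy 1.17.1) was used for exact tests and plots.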

Additional observations from a re-analysis of the deposited data

How the results depend on the processing

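The members called lower (8, 9, 9 and 9 of 9 in B0 against A0, BA10 against A10, BA50 against A50 and the mean of these) kept their direction under every alternative run. With the study's limits they were 4, 5, 5 and 5 (3.52% of all genes in the mean of the comparisons, not counted for the others). With the strict filter 3 members (Mlh3, Cntd1 and Cdk2) were tested and the count was 3 in each, with 1307, 1754, 1809 and 2834 of 10679 genes called lower. Fitting the compared groups alone gave 8, 6 and 8, quantile normalization 7, 9, 8 and 9, and equal sums 9 in each. Of all 15790 genes tested, 1403, 1088 and 2247 were called lower with the compared groups alone. The numbers were 1487, 2213, 2299 and 3441 under quantile normalization, and 2219, 2318, 2953 and 4228 with equal sums. With each replicate left out in turn the counts ranged from 7 to 8, 7 to 9, 8 to 9 and 9 to 9. Over all genes the numbers called lower then ran from 1357 to 1777, 1863 to 2429, 2001 to 2390 and 3646 to 4159. The replicate block left the members called at 8, 9, 9 and 9 (1802, 2278, 2441 and 3831 of all genes called lower) and changed no call of a member. The AOS comparisons had 0 members under every alternative. In the fit of B0 and BA50 alone with the replicate block, chosen after seeing the data, 0 genes were called. Calls that were lost belonged to Msh4, Mlh3 and Rnf212, apart from the study's limits. Fitting the compared groups alone lost Msh4, Mlh3 and Rnf212 in BA10 against A10 (adjusted p 0.107, 0.168 and 0.116) and Msh4 in BA50 against A50 (0.0716). Msh4 was also lost in BA50 against A50 under quantile normalization (0.0683) and was called in B0 against A0 with equal sums (0.0378). Over all genes, 65.2% of the calls in the mean of the busulfan comparisons were lower, 48.5% under quantile normalization and 76.2% with equal sums, and quantile normalization took B0 against A0 from 89.3% to 74.5%, BA10 against A10 from 80.2% to 67.1% and BA50 against A50 from 81.4% to 71.4%. In BA50 against B0, leaving out BA50 replicate 1 took the calls over all genes from 15 to 1115 and leaving out BA50 replicate 2 to 0, with 0 members in each. Of the 54 AOS and interaction values of members, all uncalled, 19 changed sign under at least 1 alternative. Depth is unknown, so values under 1 FPKM carry an error that only the 3 samples of a group show.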
